A study of Mus musculus with 12 samples.

Results

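The genes described here are 10 genes of coenzyme Q synthesis and handling: Pdss2, Coq3, Coq5, Coq6, Coq7, Coq8a, Coq8b, Coq9, Coq10a and Coq10b. They were taken by symbol, through the Ensembl gene identifiers, from 51911 genes counted in mouse hearts, and all 10 were found and passed the filter on low counts in every comparison. Total RNA of hearts of PTCD1 knockout (KO) mice and of wild-type (WT) mice was sequenced after depletion of cytoplasmic ribosomal RNA. For each genotype there were 3 untreated libraries and 3 libraries with CMC, a carbodiimide that binds pseudouridine and that the protocol applies to isolated RNA, so 12 libraries fell into 4 groups. The study asked how loss of PTCD1, a mitochondrial pentatricopeptide repeat protein, changes RNA in the heart. The strain, age and sex of the mice, the cells in which Ptcd1 was deleted and any driver of the deletion are not given in the labels used here. The labels do not say whether the 3 libraries of a group came from separate hearts, nor whether a CMC library and an untreated library shared a heart. The p-values therefore measure only the spread between these libraries, which may be technical, and every n = 3 below counts libraries. For KO over WT, edgeR's common coefficient of variation between libraries, beyond counting noise, was 2.46% untreated and 5.39% with CMC.

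Coenzyme Q, or ubiquinone, is a lipid of the inner mitochondrial membrane that takes electrons from complex I, complex II and several other dehydrogenases and passes them to complex III. A polyprenyl tail is joined to an aromatic ring, and the ring is then hydroxylated, decarboxylated and methylated by COQ proteins that gather in a complex on the matrix side of the membrane. The heart, which works mainly by oxidative phosphorylation, is rich in coenzyme Q, and inherited defects of these genes are known in people with disease of muscle, brain, kidney or heart.

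Depth was 10389398 to 12462093 counts per library, of which 2683284 to 3187748 fell in nuclear genes and set the precision for these genes. Ptcd1, the targeted gene, had 71 to 79 counts in untreated WT libraries and 17 to 28 in untreated KO libraries, and 74 to 103 against 20 to 23 with CMC. Cardiomyocyte markers were abundant in all libraries, which fits the tissue label, and all 6 of the list (Myh6, Actc1, Tnnt2, Tnni3, Myl2 and Ryr2) fell in untreated KO hearts, by 0.98 (Tnni3) to 1.79 (Ryr2) on the log2 scale. Their summed level was 69321 to 71798 counts per 1000000 scaled nuclear counts (CPM) in untreated WT libraries and 33178 to 33291 CPM in KO libraries, and 67349 to 74701 against 36554 to 37395 CPM with CMC. Of 5 macrophage markers 2 rose, and their sum was 198 to 205 CPM in WT and 240 to 250 CPM in KO untreated libraries. Of 5 fibroblast markers, Col1a1 and Col1a2 rose and Dcn and Pdgfra fell, with a sum of 1327 to 1393 CPM in WT and 1146 to 1157 CPM in KO. Among smooth muscle and pericyte markers 3 of 5 fell (1784 to 1876 against 1429 to 1446 CPM), among adipocyte markers 2 of 3 (40.9 to 44.3 against 20.9 to 28.3 CPM) and among erythroid markers 3 of 3 (423 to 597 against 370 to 395 CPM). Of 5 endothelial markers 1 rose and 2 fell, and their sums overlapped (1008 to 1072 against 986 to 1027 CPM). Beside these counts of markers, 28.7% of all nuclear genes tested were called lower and 29.1% higher in untreated KO libraries. The third WT library with CMC stood apart within its group: the chi-square per degree of freedom over genes was 2.07 and 2.44 against its 2 partners and 1.39 between those, and 1.12 to 1.36 within the other groups. Lymphocyte and hepatocyte markers stayed at or below 2.86 and 0.717 CPM in every library. In bulk tissue, fewer cells of a type and less RNA per cell cannot be told apart, and the part of these marker differences in the results below was not tested.

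In untreated hearts, loss of PTCD1 went with lower RNA of Coq8a, Coq9, Coq10a and Coq7 and with higher RNA of Coq8b and Coq10b. Coq8a fell 3.60-fold and Coq9 1.70-fold in mean CPM, while Coq8b rose 3.10-fold and Coq10b 2.07-fold. Both pairs of related genes, Coq8a with Coq8b and Coq10a with Coq10b, therefore moved in opposite directions within the pair. Pdss2, Coq3, Coq5 and Coq6 did not pass the test. Thus 6 of 10 genes passed, 4 lower and 2 higher, by edgeR's quasi-likelihood test with Benjamini-Hochberg adjustment at 0.05, where 57.8% of the 12195 nuclear genes tested were called, 28.7% lower and 29.1% higher. The share of members called was near that background. The median log2 fold change (KO over WT) was -0.18 over the 10 members and -0.0036 over all genes tested.

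The pair Coq8a and Coq8b encodes atypical kinase-like proteins of the ABC1 family, which bind ATP and help to keep the coenzyme Q complex working. Coq8a lies on chromosome 1 from 180165238 to 180199602 on the minus strand of mm10, and Coq8b on chromosome 7 from 27233023 to 27257950 on the plus strand (identifiers ENSMUSG00000026489.13 and ENSMUSG00000003762.13). Coq8a had 956, 1047 and 1077 counts in untreated WT libraries, 329, 306 and 310 in untreated KO libraries, 1165, 1258 and 1072 in WT libraries with CMC, and 297, 304 and 265 in KO libraries with CMC. Every KO library was far below every WT library, with or without CMC, and the groups did not overlap. How many of all nuclear genes separate without overlap was not counted, so this is description only, here and for the genes below. Mean levels of Coq8a were 358 ± 22.9 CPM in WT and 99.3 ± 1.68 CPM in KO untreated hearts (SD, n = 3 each), and its log2 fold change was -1.85 (SE 0.06, 95% interval -1.95 to -1.74, adjusted p = 8.10e-94). With CMC they were 386 ± 16.8 and 98.6 ± 6.81 CPM, and the log2 fold change was -1.97 (SE 0.07, adjusted p = 3.31e-21).

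Coq8b was a gene of low counts and moved the other way. Its counts were 22, 21 and 19 in untreated WT libraries, 68, 78 and 66 in untreated KO libraries, 29, 18 and 24 in WT libraries with CMC, and 86, 70 and 68 in KO libraries with CMC. All 6 KO libraries (20.9 to 27.3 CPM) lay above all 6 WT libraries (5.71 to 9.76 CPM). Mean levels were 7.21 ± 0.553 CPM in WT and 22.3 ± 2.36 CPM in KO untreated hearts (SD, n = 3 each). The log2 fold change of Coq8b was 1.63 (SE 0.20, 95% interval 1.24 to 2.01, adjusted p = 4.40e-14) in untreated and 1.69 (SE 0.19, adjusted p = 6.50e-09) in CMC libraries. Its interval was wider than that of Coq8a.

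**Figure D1:**
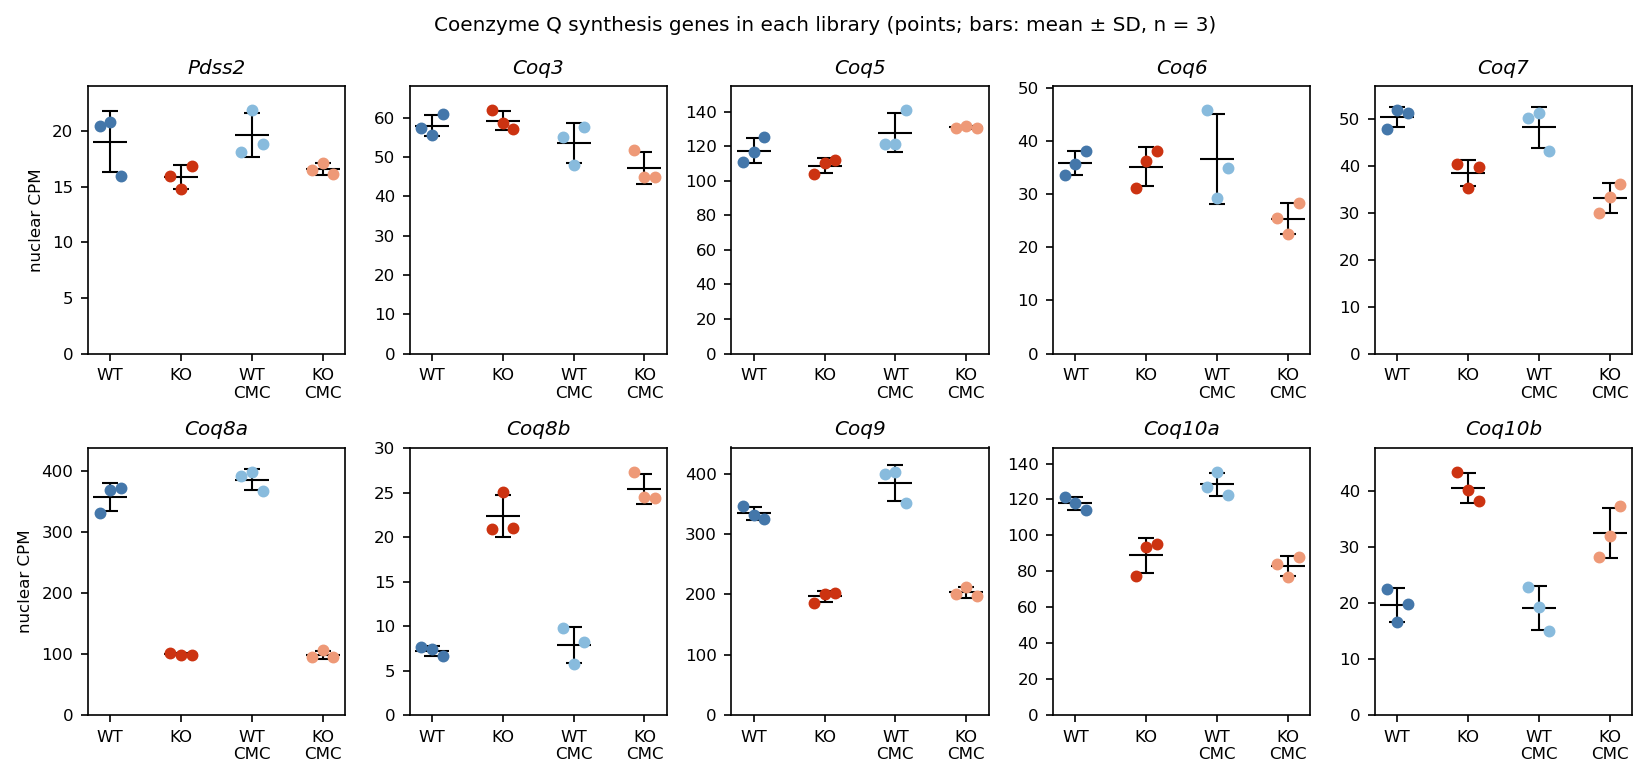
Level of each of the 10 genes in each library, in CPM on linear axes that start at 0, by group. Points are libraries and bars are means with SD (n = 3). Coq8a, Coq9, Coq10a and Coq7 sit lower in all KO libraries than in all WT libraries, and Coq8b and Coq10b sit higher. The share of all nuclear genes that separate in this way was not counted.

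The ratio of the pair, taken within each library per kilobase of exon, needs no scaling between libraries. Coq8a exceeded Coq8b 45.9-fold to 59.8-fold in untreated WT libraries (mean 52.8) and 4.14-fold to 5.11-fold in untreated KO libraries (mean 4.73). With CMC the ratio was 42.4 to 73.8 in WT and 3.64 to 4.58 in KO libraries. Coq8a thus remained the more abundant member of the pair in every KO library, by a margin that was 11.1-fold smaller than in WT in untreated libraries and 12.9-fold smaller with CMC. The log2 ratio was lower in KO than in WT libraries by 3.48 (difference -3.48, SE 0.15) in untreated and by 3.69 (difference -3.69, SE 0.26) in CMC libraries. The groups did not overlap, and the exact two-sided permutation test gave p = 0.1 each time, the smallest that 3 against 3 allows.

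Coq8b made up 1.88% ± 0.245 of the summed level per kilobase of the pair in untreated WT hearts and 17.5% ± 1.67 in untreated KO hearts (SD, n = 3 each). The summed level itself was 68.9 ± 4.25 CPM per kilobase in WT and 22.8 ± 0.348 CPM per kilobase in KO libraries. With CMC the share of Coq8b was 1.91% ± 0.505 and 19.7% ± 1.81, and the sum 74.3 ± 3.07 and 23.2 ± 1.16 CPM per kilobase. In level per kilobase the rise of Coq8b was small beside the fall of Coq8a, and the pair together was lower in every KO library.

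**Figure D2:**
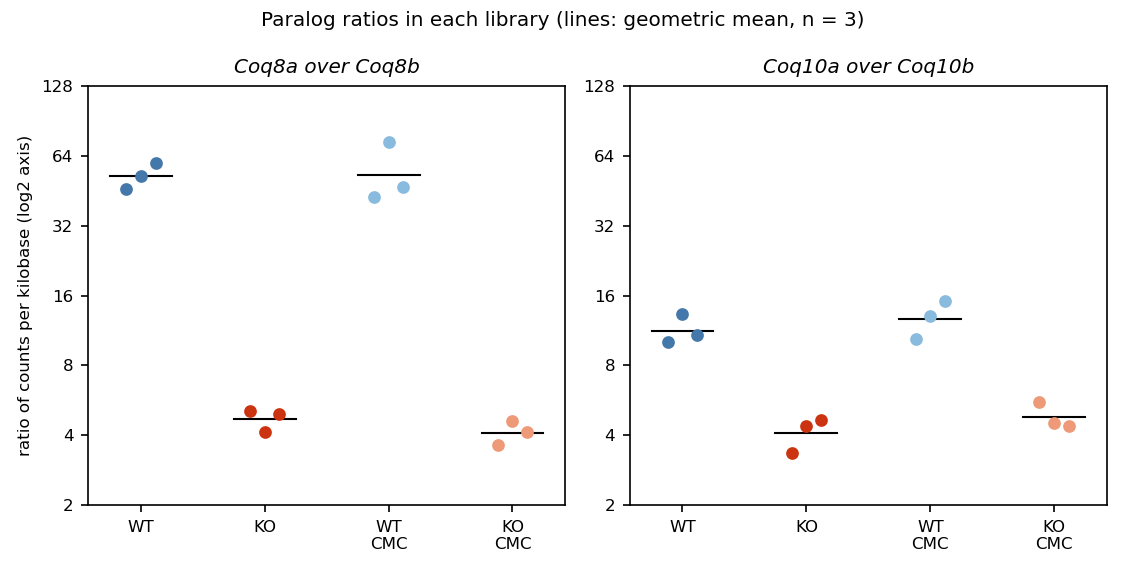
Ratio of Coq8a to Coq8b and of Coq10a to Coq10b per kilobase of exon in each of the 12 libraries, on a log2 axis, by group; points are libraries and lines are geometric means (n = 3). In both pairs the KO libraries lie below the WT libraries, and the gap is wider for Coq8a to Coq8b (-3.48 in untreated libraries) than for Coq10a to Coq10b (-1.47).

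Parts of both genes share exon sequence with other genes, and whether the counting used strand is not stated in the labels or headers. Coq8a shares 366 bases (6.92% of its exons) with Cdc42bpa on the opposite strand, a kinase gene whose log2 fold change was 0.25 (adjusted p = 0.000144), opposite in sign to that of Coq8a. Coq8b shares 608 bases (10.9%) with an antisense gene, Gm15567, and with Gm44641; the first had 0 counts in all 12 libraries and the second at most 1. Reads from bases shared with Cdc42bpa or Gm15567 cannot be assigned without strand. Gm44641 lies on the same strand as Coq8b, so strand would not separate reads in their 153 shared bases.

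Coq10a and Coq10b encode lipid-binding proteins of the START family that are needed for coenzyme Q to work in the respiratory chain, rather than enzymes of its synthesis. Coq10a (chromosome 10, 128363100 to 128368997, minus strand; ENSMUSG00000039914.6) had 350, 334 and 330 counts in untreated WT libraries and 252, 292 and 300 in untreated KO libraries. With CMC it had 378, 427 and 358 counts in WT and 264, 219 and 245 in KO libraries. All KO libraries were below all WT libraries. The mean fell from 118 ± 3.56 to 88.9 ± 9.83 CPM in untreated hearts (SD, n = 3 each), a log2 fold change of -0.41 (SE 0.07, adjusted p = 1.64e-07), and with CMC the log2 fold change was -0.64 (adjusted p = 1.07e-07).

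Coq10b (chromosome 1, 55052770 to 55072702, plus strand; ENSMUSG00000025981.13) had 65, 47 and 57 counts in untreated WT libraries and 141, 125 and 120 in untreated KO libraries. In CMC libraries it had 68, 61 and 44 counts in WT and 89, 91 and 104 in KO. The groups did not overlap, and the KO libraries were the higher ones with and without CMC. Mean levels were 19.6 ± 2.99 CPM in WT and 40.6 ± 2.66 CPM in KO untreated hearts (SD, n = 3 each). The log2 fold change was 1.05 (SE 0.13, 95% interval 0.79 to 1.31, adjusted p = 3.66e-13) in untreated and 0.75 (SE 0.15, adjusted p = 0.000116) in CMC libraries. Coq10b shares 343 bases (7.14%) of its exons with E330011M16Rik on the opposite strand, which had at most 2 counts in any library.

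Within libraries, Coq10a exceeded Coq10b per kilobase 10.1-fold to 13.3-fold in untreated WT and 3.34-fold to 4.67-fold in untreated KO hearts. The log2 ratio was lower in KO by 1.47 (difference -1.47, SE 0.19), which is 2.77-fold, and by 1.41 (difference -1.41) with CMC, where it ran from 10.4 to 15.2 in WT and from 4.40 to 5.54 in KO libraries as a plain ratio. The exact two-sided permutation test again gave its smallest possible p, 0.1. Summed over the pair, the level was 49.9 ± 1.77 CPM per kilobase in WT and 43.0 ± 3.29 in KO untreated hearts (SD, n = 3 each), and 53.9 ± 2.96 against 38.9 ± 2.76 with CMC. The share of Coq10b in that sum was 8.17% in WT and 19.8% in KO untreated hearts.

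The sequence just before a RefSeq start (GRCm38.p6) is shown for 2 genes that moved in opposite directions, Coq10b and Coq8a. Each is written 5′ to 3′ on the strand of its gene. Capitals mark CGTCA, the half-site of the cyclic AMP response element, and CCAAT, the core of the CCAAT box, on either strand (ATTGG is CCAAT on the other strand). The Coq10b stretch is chr1:55052520-55052769 on the plus strand, the 250 bases before the start, all of them annotated as exon of E330011M16Rik. The Coq8a stretch is chr1:180196076-180196270 on the minus strand and leaves out the 55 bases nearest its start. Coq8a had 2 starts in the search, both inside the annotated gene, which begins at 180199602 on that strand. The 250 bases before the other start, chr1:180193486-180193735, held 0 matches to CGTCA and 0 to CCAAT.
Coq10b: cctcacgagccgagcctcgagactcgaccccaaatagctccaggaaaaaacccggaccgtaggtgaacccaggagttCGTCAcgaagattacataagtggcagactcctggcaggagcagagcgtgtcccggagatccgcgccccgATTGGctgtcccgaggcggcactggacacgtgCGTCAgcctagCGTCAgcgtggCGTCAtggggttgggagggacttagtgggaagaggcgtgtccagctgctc
Coq8a: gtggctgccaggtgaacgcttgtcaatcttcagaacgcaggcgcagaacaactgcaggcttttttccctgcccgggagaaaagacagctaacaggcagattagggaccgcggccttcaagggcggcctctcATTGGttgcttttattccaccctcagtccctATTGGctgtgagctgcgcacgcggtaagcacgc
The Coq10b stretch held 4 matches to CGTCA and 1 to CCAAT, while the printed Coq8a stretch, 195 bases long, held none to CGTCA and 2 to CCAAT. All 250 bases before that start of Coq8a held 0 matches to CGTCA and 3 to CCAAT. Among the other members, which include genes lower in KO hearts, CGTCA had 2 matches before a RefSeq start of Coq9 and 1 before a start of Coq10a. The Coq9 stretch, chr8:94838163-94838412, lies wholly in annotated untranslated regions of Ciapin1 or Coq9. It runs past the annotated start of Coq9 at 94838321. Of 32851 mouse promoters of 250 bases, 17.8% held CGTCA at least once, 0.137% (45 promoters) held it at least 4 times and 33.8% held CCAAT. The cutoff of 4 is the count found before Coq10b itself, so that share only describes and tests nothing. The search covered both strands of 11 starts of 8 of the 10 genes; Coq5 and Coq8b had no entry in the table used. TGATGNAA, the core of the C/EBP-ATF response element, was in none of these promoters and in 3.45% of all promoters, and AAGGTCA, a nuclear receptor half-site, was in 1 promoter of Coq10a and in 4.08% of all. A match is a run of letters and says nothing of binding.

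Coq9 encodes a lipid-binding protein that presents the precursor to the hydroxylase COQ7. Coq9 (chromosome 8, 94838321 to 94854895, plus strand; ENSMUSG00000031782.15) had 999, 942 and 939 counts in untreated WT libraries and 605, 626 and 638 in untreated KO libraries. With CMC the counts were 1189, 1272 and 1026 in WT and 630, 608 and 549 in KO. No KO library reached the lowest WT library. The mean was 335 ± 10.9 CPM in WT and 197 ± 9.06 CPM in KO untreated hearts (SD, n = 3 each), with a log2 fold change of -0.76 (SE 0.05, adjusted p = 2.53e-38), and of -0.93 (adjusted p = 1.58e-13) with CMC. Ciapin1, a gene of cytosolic iron-sulfur assembly that starts beside Coq9 on the opposite strand and shares 38 bases of exon with it, rose in KO hearts: it had 83, 95 and 81 counts in WT and 157, 161 and 148 in KO untreated libraries (log2 fold change 0.71, adjusted p = 8.06e-09).

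Coq7, the hydroxylase that works with COQ9 late in the pathway, changed less. It lies on chromosome 7 from 118509659 to 118533356 on the minus strand (ENSMUSG00000030652.11) and had 138, 147 and 148 counts in untreated WT and 131, 110 and 125 in untreated KO libraries. With CMC it had 149, 162 and 126 counts in WT and 94, 95 and 101 in KO. Scaled to CPM, all 6 KO libraries (29.9 to 40.3 CPM) were below all 6 WT libraries (43.1 to 51.8 CPM). The log2 fold change was -0.38 (SE 0.11, adjusted p = 0.000837) in untreated and -0.55 (adjusted p = 0.000146) in CMC libraries. In the authors' deposited table for untreated hearts, Coq7 had a log2 fold change of -0.37 and an adjusted p of 0.0603, so it did not pass 0.05 there.

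The other ring enzymes and the tail enzyme did not pass the test in untreated hearts. Pdss2, a subunit of the synthase that makes the polyprenyl tail, had 59, 59 and 46 counts in WT and 52, 46 and 53 in KO libraries, with a log2 fold change of -0.26 (95% interval -0.59 to 0.07, adjusted p = 0.180). Coq3, an O-methyltransferase, had 165, 158 and 176 counts in WT and 201, 183 and 180 in KO libraries, with a log2 fold change of 0.04 (95% interval -0.14 to 0.22, adjusted p = 0.762). Coq5, a C-methyltransferase, had 319, 330 and 361 counts in WT and 337, 343 and 353 in KO libraries, with a log2 fold change of -0.11 (95% interval -0.24 to 0.03, adjusted p = 0.167). For Coq6, a flavin-dependent monooxygenase, the counts were 97, 101 and 110 in WT and 101, 113 and 120 in KO libraries, with a log2 fold change of -0.02 (95% interval -0.26 to 0.21, adjusted p = 0.878). Their untreated groups overlapped in CPM. These intervals leave room for changes of moderate size, most of all for Pdss2, the least abundant of the 4. Their mm10 positions are chromosome 10, 43221486 to 43464882 for Pdss2, chromosome 4, 21879673 to 21912162 for Coq3, chromosome 5, 115279666 to 115296972 for Coq5 and chromosome 12, 84361657 to 84373796 for Coq6, all on the plus strand.

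With CMC, 7 of 10 genes passed, 5 lower and 2 higher, also without the third WT library, where 54% of the 12198 nuclear genes tested were called, 26.8% lower and 27.2% higher. The added gene was Coq6, with 136, 92 and 102 counts in WT and 80, 64 and 79 in KO libraries. Its log2 fold change was -0.53 (SE 0.15, adjusted p = 0.00302). The call rested on the first WT library with CMC, the highest of the group: without it the log2 fold change of Coq6 was -0.33 and the adjusted p 0.0739. Pdss2, Coq3 and Coq5 had log2 fold changes of -0.25, -0.18 and 0.03 (adjusted p = 0.203, 0.143 and 0.770). The CMC libraries measure the same genotypes again, and whether they hold RNA of other hearts than the untreated libraries is not stated.

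**Figure D3:**
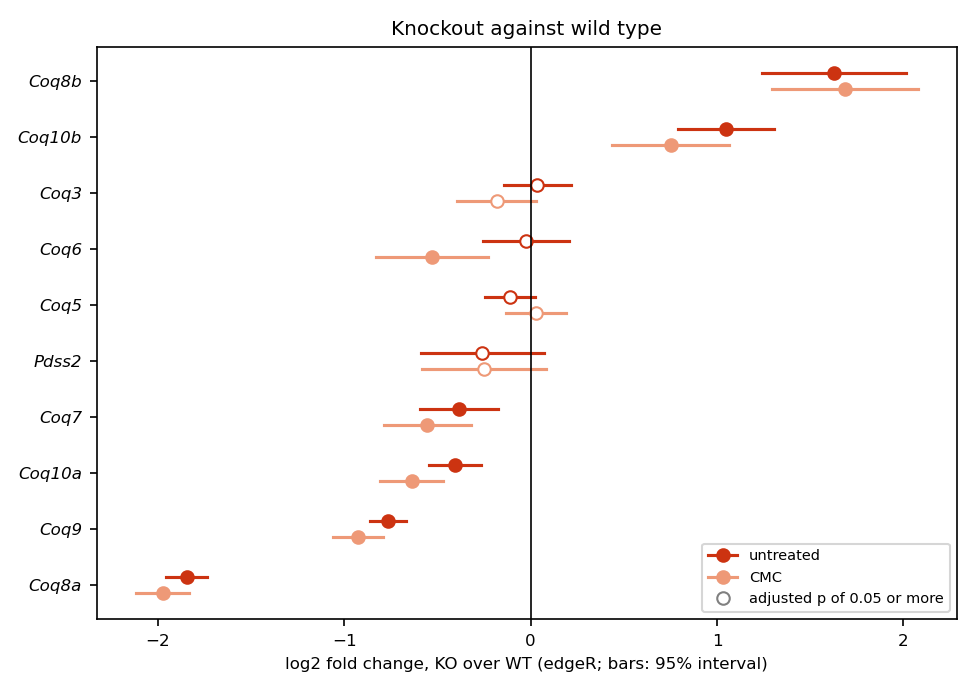
Log2 fold change of the 10 genes, KO over WT, in untreated and in CMC libraries, with 95% intervals from the edgeR fit; open points did not pass the test, and the line at 0 marks no difference. Coq8a (-1.85 and -1.97) and Coq8b (1.63 and 1.69) lie farthest from 0 on opposite sides in both sets.

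The genotype effect was not found to differ between CMC and untreated libraries for any of the 10 genes. In 1 fit of all 12 libraries, 0 members and 190 of 12786 nuclear genes (1.49%) were called for this difference by edgeR's quasi-likelihood test, and DESeq2 also called 0 members. At an unadjusted p under 0.05 there were 2 members and 1592 genes: Coq6 (log2 difference -0.50, adjusted p = 0.197) and Coq10a (-0.22, adjusted p = 0.399). The difference was -0.12 for Coq8a (95% interval -0.30 to 0.06, adjusted p = 0.632) and 0.07 for Coq8b (95% interval -0.51 to 0.65, adjusted p = 0.958).

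Between CMC and untreated libraries of the same genotype, no member passed the test in WT hearts and 4 did in KO hearts. In WT, edgeR's test called 0 members and 270 of 12099 genes (2.23%); at an unadjusted p under 0.05 there were 1 member, Coq9, and 1773 genes, and DESeq2 called 0 members. Coq9 had a log2 fold change of 0.20 there (adjusted p = 0.0690), and it passed without the third WT library with CMC, when 750 genes were called. Coq8a and Coq8b had log2 fold changes of 0.11 and 0.12 (adjusted p = 0.400 and 0.892). In KO hearts, 4 members were called, where 12.1% of 11967 genes were (6.77% higher, 5.34% lower): Coq5 rose by 0.26 on the log2 scale (adjusted p = 0.00319), and Coq3, Coq6 and Coq10b fell by 0.33, 0.48 and 0.33 (adjusted p = 0.0124, 0.00603 and 0.0453). DESeq2 called only Coq5 of the 10, and leaving out 1 library at a time left 1 to 3, with 1 left without the second KO library with CMC and 2 without the first or the third untreated KO library. Calls over all genes fell as well. DESeq2 called 368 higher and 206 lower, against 810 and 639, and leaving out 1 library called 1003 to 1307 against 1449. Coq8a (-0.02, adjusted p = 0.916) and Coq8b (0.19, adjusted p = 0.457) did not pass in KO hearts.

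The order of the genes by level per kilobase differed between genotypes. In untreated WT hearts Coq9 was the most abundant of the 10 (110 ± 3.56 CPM per kilobase), followed by Coq8a (67.6 ± 4.32), Coq10a (45.8 ± 1.38), Coq5 (38.7 ± 2.39), Coq3 (19.3 ± 0.902), Coq6 (11.4 ± 0.710), Coq7 (7.82 ± 0.333), Coq10b (4.08 ± 0.623), Pdss2 (3.20 ± 0.456) and Coq8b (1.29 ± 0.0990), all SD with n = 3. Coq10b and Pdss2 overlapped, and no other neighbours in this order did. In untreated KO hearts the order was Coq9 (64.4), Coq5 (35.8), Coq10a (34.5), Coq3 (19.8), Coq8a (18.8), Coq6 (11.2), Coq10b (8.44), Coq7 (5.98), Coq8b (3.99) and Pdss2 (2.66 CPM per kilobase). Coq8a had moved from the place after Coq9 to the level of Coq3, with which it overlapped, as did Coq5 with Coq10a. With CMC, Coq8a came after Coq9 in WT, and in KO after Coq9, Coq5 and Coq10a and above Coq3, with no overlap. Coq8b was the least abundant member in WT libraries, and Pdss2 in KO libraries, both with and without CMC.

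Over the 12 libraries, the protein-coding genes whose log2 CPM was most like that of Coq8a, among 10434 searched, were Tcap, a titin-binding protein of the sarcomere (Pearson r = 0.999), Idh2, the mitochondrial isocitrate dehydrogenase (0.999), and Eno3, the muscle enolase (0.998). Most like Coq8b were Prmt7, an arginine methyltransferase (0.991), Gnl3, a nucleolar GTPase (0.990), and Tmem11, a protein of the inner mitochondrial membrane (0.990). The 12 points share 2 genotypes, so these values mostly describe a common split between KO and WT libraries.

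Among the synthesis genes outside the 10, Coq2, the prenyltransferase that joins tail and ring, fell by 0.68 on the log2 scale in untreated KO hearts (SE 0.11, adjusted p = 1.04e-08). Pdss1, the partner subunit of Pdss2, and Coq4, which acts on the ring, had log2 fold changes of 0.25 and 0.21 (adjusted p = 0.207 and 0.352). Of 9 genes of mevalonate and prenyl supply, 6 could be tested: 1 fell, 5 missed the threshold, and the median log2 fold change was -0.08, where 28.7% of all genes tested were called lower. The count was 2 without the first untreated KO library and 2 without TMM scaling. The gene that fell was Pmvk, phosphomevalonate kinase (log2 fold change -1.32, SE 0.24, adjusted p = 3.48e-07).

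Of 6 genes whose products work with the synthesis enzymes, 4 could be tested and all 4 passed, 3 lower and 1 higher, with a median of -0.58, where 57.8% of all genes tested were called, 28.7% lower and 29.1% higher. Rtn4ip1, a mitochondrial oxidoreductase, fell by 0.86 on the log2 scale, Pptc7, a mitochondrial phosphatase, by 0.60, and Stard7, a lipid carrier, by 0.56 (adjusted p = 5.12e-09, 9.53e-17 and 1.24e-14). Fdxr, the ferredoxin reductase that supplies electrons for the COQ6 step, rose by 0.96 (adjusted p = 0.000617). The other ABC1 kinase-like genes, relatives of Coq8a and Coq8b, gave 0 of 3 calls in untreated libraries by edgeR and by DESeq2, and 0 at an unadjusted p under 0.05: Adck1 had a log2 fold change of 0.16, Adck2 of -0.54 and Adck5 of 0.48 (adjusted p = 0.297, 0.105 and 0.197). Adck2 passed without the third untreated KO library (-0.80, adjusted p = 0.0423). With CMC, 1 of 3 was called, Adck2 (-0.77, adjusted p = 0.0372), where 54% of all genes tested were called, 26.8% lower. Adck1 had -0.04 and Adck5 -0.59 (adjusted p = 0.842 and 0.138).

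Of 11 genes for enzymes that hand electrons to coenzyme Q, 10 could be tested; 6 fell, 4 missed the threshold, and the median log2 fold change was -0.46, where 28.7% of all genes tested were called lower. Etfdh, which passes on electrons from fatty acid oxidation, fell by 1.02 on the log2 scale (SE 0.04, adjusted p = 2.19e-78). Sqor, the sulfide oxidase, fell by 0.76, and Sdha and Sdhc, subunits of complex II, by 0.58 and 0.57 (adjusted p = 1.68e-08, 1.59e-38 and 3.79e-23). Sdhb and Sdhd, which also fell, are subunits of the same complex, so the 6 genes stand for fewer enzymes. Dhodh, Gpd2, Prodh and Aifm2 did not pass. With CMC, 7 of these 10 fell and 3 did not pass, where 26.8% of all genes tested were called lower.

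**Figure D4:**
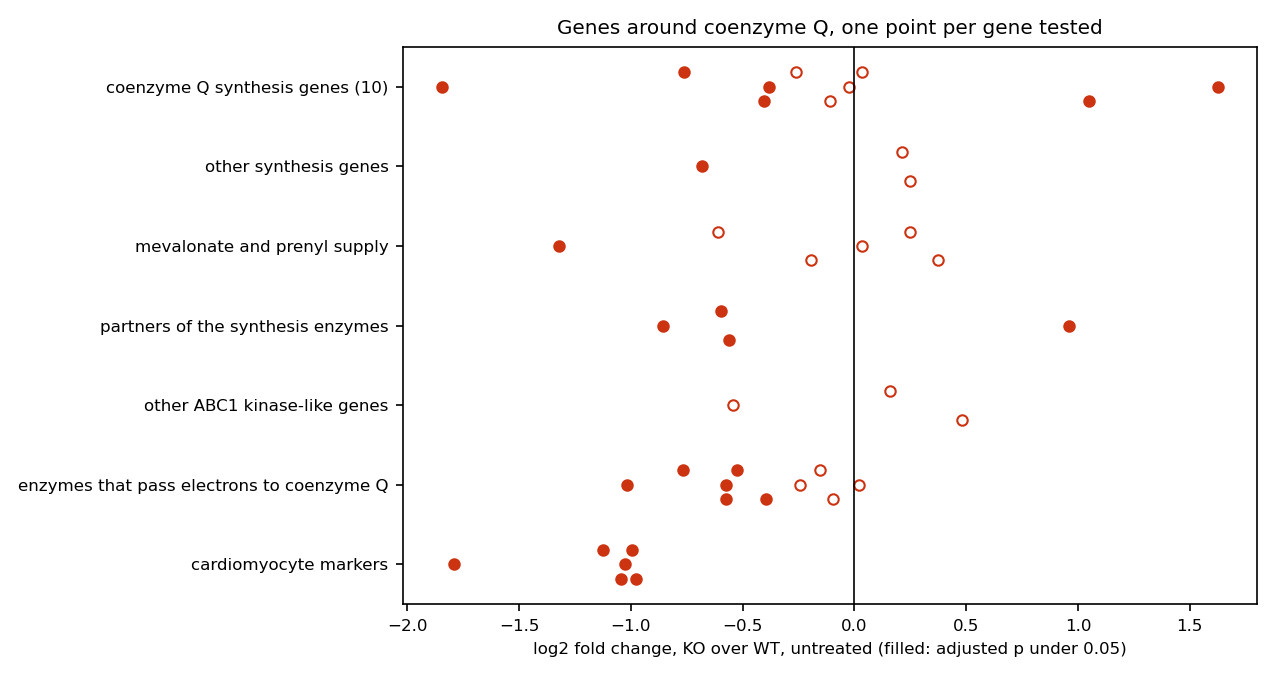
Log2 fold change (KO over WT, untreated libraries) of each tested gene, 1 point per gene, for the 10 members, the lists around coenzyme Q and the cardiomyocyte markers; filled points passed the test, open points did not, and the line is at 0. The enzymes that pass electrons to coenzyme Q have a median of -0.46, with Etfdh lowest at -1.02.

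The authors' deposited table for untreated hearts gave the same direction as the values above for each of the 6 genes called here: log2 fold changes of -1.83 for Coq8a, 1.65 for Coq8b, -0.75 for Coq9, 1.07 for Coq10b and -0.39 for Coq10a, beside -0.37 for Coq7. In the authors' deposited table, 32.2% of 15426 genes had an adjusted p under 0.05, and 5 of the 10 members did. Their deposited gene ontology table listed 8 of 15 genes of the ubiquinone biosynthetic process as called, with an unadjusted over-representation p-value of 0.00240.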

How the data were processed

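The authors deposited raw read counts per gene, in separate tables for untreated and CMC libraries, with the columns featureCounts writes per the file headers. The submitters' processing notes list the mm10 build and, with no role given, DESeq2 1.16.1, featureCounts 1.5.1, SAMtools 1.5 and HISAT2 2.0.5. The authors also deposited a table of log2 fold changes with standard errors, p-values, a Wald score and a mean normalized signal, and a gene ontology table of p-values and counts of genes; the direction of the first is KO over WT from the sign of Ptcd1.

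Names and positions came from GENCODE M21. The 36 mitochondrial genes were left out of library sizes and tests. After filterByExpr and TMM scaling over nuclear genes, counts went into the quasi-likelihood test of edgeR 4.0.16 (R 4.3.3), with Benjamini-Hochberg adjustment over all nuclear genes tested and calls at 0.05, in 5 comparisons. CPM are per 1000000 effective nuclear counts, and per kilobase uses the deposited exon length. Ratios of related genes used exact permutation tests. Alternatives were DESeq2 1.42.0, other scalings, no filter, a replicate block, 1 fit of all 12 libraries and leaving out each library. All 10 members were named, with up to 4 called genes of each other list by size of change, and for likeness the 3 genes with the highest r. The members and lists were chosen with earlier results of these data known.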

Additional observations from a re-analysis of the deposited data

How the results depend on the processing

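Low counts limit Coq8b in WT hearts most. Of 574 refitted fold changes of named genes, 546 kept their direction and side of the threshold, 17 lost their call, 1 gained one and 10, none of them called, changed sign. For CMC over untreated and for the difference of effects, this tally holds only Coq8a, Coq8b and members already called. It therefore leaves little room for gained calls, and leaves out that of Coq9 in WT. All 32 refitted ratios kept their direction, though those paired by replicate number equal the main values by construction. Their p was the smallest the design allows and says nothing of stability. For KO over WT, 6 of 10 members stayed the count untreated under every alternative, and 6 to 7 with CMC. The calls over all nuclear genes moved more. Untreated, DESeq2 called 2695 genes higher and 2647 lower, against 3549 and 3497, and leaving out 1 library called 6635 to 6724 against 7046. With CMC, DESeq2 called 2628 higher and 2479 lower, against 3313 and 3271, and leaving out 1 library called 6076 to 6542 against 6584.

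Without TMM, the log2 fold change of Coq5 in untreated libraries was 0.011 and that of Coq6 0.095; that scaling moved the median of all genes by 0.12, and 61.5% of calls were then higher against 50.4%. Coq6 was at 0.00095 with no filter. Leaving out 1 library gave log2 values of -0.083 to 0.061 for Coq6 in untreated libraries, -0.00067 to 0.113 for Coq5 with CMC, -0.059 to 0.317 for CMC over untreated of Coq8b in WT, -0.073 to 0.012 for that of Coq8a in KO and -0.124 to 0.253 for the difference of genotype effects of Coq8b.

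For CMC over untreated in WT, 1 member was called without TMM and 1 in the fit of all 12 libraries, and 0 to 1 when leaving out 1 library; all genes called were 81 by DESeq2, 436 in the fit of all 12 and 73 to 750 when leaving out 1, against 270. In KO, DESeq2 called 1 member and 574 genes against 4 and 1449, and leaving out 1 library gave 1 to 3 members among 1003 to 1307 genes. For the difference of genotype effects, DESeq2 called 99 genes and leaving out 1 library 78 to 621, against 190; the highest was without WT CMC replicate 3. The cause was not tested.

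Without TMM, the share of calls that were higher was 60.7% against 43.3% for CMC over untreated in WT, and 52.0% against 73.7% for the difference of effects.

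Correlations of the deviations of same-numbered libraries over 7405 genes were weak and ran from -0.108 to 0.0700. With the replicate number as a block, 6 and 7 members were called for KO over WT, among 7018 and 6411 genes, and 3 for CMC over untreated in KO, where Coq10b was lost (adjusted p = 0.0585). The block changed no other call of a member. Pairing cannot change the mean difference of the log2 ratios (-3.48, -3.69, -1.47 and -1.41), so for them it is no check. For KO untreated and CMC libraries, 3 of 3 correlated best with their own number, at r of 0.0249 to 0.0700. In each other pair of groups 0 did. Whether the KO libraries shared RNA was not tested.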
